A study of Mus musculus with 20 samples.

Results

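The genes described here are 10 transcripts of insulin receptor signalling, chosen by name: Insr, Irs1, Irs2, Pik3r1, Akt1, Akt2, Grb10, Grb14, Tbc1d4 and Sos1. All 10 were found once each among the 48440 Ensembl gene IDs measured, and all 10 passed the filter on low counts in every comparison. The RNA came from gonadal fat pads and livers of wild-type (WT) mice and of mice labelled AdEpsKO, called KO here, which the series describes as deficient in the kinase PKCε (protein kinase C epsilon, gene Prkce). All 4 groups shared the C57BL/6 background, 1 week of a diet rich in fat and 6 h without food before the tissues were taken. Each group (KO fat, WT fat, KO liver, WT liver) held 5 libraries, 20 in all. The sources used here do not give the age and sex of the mice, nor the tissues or part of Prkce that the KO allele removes. The series gives 5 mice a group but does not say outright that each library is a separate mouse, so the p-values measure the spread between libraries.

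Insulin binds the receptor Insr, a tyrosine kinase that phosphorylates itself and the docking proteins Irs1 and Irs2. These recruit phosphoinositide 3-kinase through its regulatory subunit Pik3r1, which leads to activation of the kinases Akt1 and Akt2, and in fat and muscle Akt phosphorylates Tbc1d4 so that vesicles with the glucose transporter GLUT4 reach the cell surface. Grb10 and Grb14 are adaptors that bind the active receptor and inhibit it, and Sos1 is the exchange factor that links receptors to Ras and the MAP kinases. PKCε has been proposed to phosphorylate and inhibit the insulin receptor when diacylglycerol accumulates, which is a change of the protein and need not show in the RNA.

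Each library held between 12880933 and 20784145 expected counts. Levels are given as CPM (a gene's counts in proportion to the size of its library), with library sizes adjusted by TMM factors over all 20 libraries. These factors ran from 1.3 to 1.46 in fat and from 0.691 to 0.76 in liver, so a CPM printed here is lower than one made from the plain total in fat and higher in liver. Prkce, the targeted gene, stood at 24.9, 25.5, 16.1, 25.3 and 20.7 CPM in the KO fat libraries and at 37.1, 44.5, 25.7, 48.2 and 26.5 CPM in the WT fat libraries. The 2 sets did not overlap, by a margin of 25.5 against 25.7 CPM, and KO over WT came to 0.615 (95% interval 0.45 to 0.841; adjusted p = 0.687 by edgeR). In liver Prkce stood at 14.8, 12.2, 20, 12 and 18.1 CPM in KO and at 14.7, 21.1, 17.4, 27.4 and 17.8 CPM in WT, and the sets overlapped. The tissues carried their own markers: the summed level of 7 adipocyte genes was 18500 to 32700 CPM (plain library size) in fat and 8.34 to 52.3 in liver, and that of 7 hepatocyte genes was 101000 to 143000 in liver and 14.4 to 582 in fat. Fat libraries KO 3 and WT 4 held the most hepatocyte transcripts (567 and 582 CPM), KO 2 and WT 2 the most skeletal muscle transcripts (534 and 707 CPM), and KO 2 also 1890 CPM of 6 urothelial genes, while no other fat library exceeded 178 CPM. Of the 7 adipocyte markers 6 were lower in KO than WT fat (median log2 difference -0.305, with 0 called), and all 6 erythroid markers were lower in KO in both tissues.

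In the comparison of KO with WT gonadal fat, 0 of the 10 genes were called at an adjusted p under 0.05, where 0% of 14707 genes tested were called. DESeq2 called 16 genes, and limma-voom called 0 genes, with 0 of the 10 in either. An unadjusted p under 0.05 by edgeR was reached by 2 of the 10, Grb10 (lower in KO) and Sos1 (higher in KO), where 7.13% of all genes reached it. The log2 differences ran from -0.36 to 0.33, and only 2 of the 10 were positive, where 50.1% of all genes were, with a median of -0.09 against 0.001 over all genes. An alternative fit left out the fat libraries KO 2, WT 2 and WT 4 for their transcripts of other tissues. In it 6 of the 10 were positive, as Insr, Irs1, Irs2 and Tbc1d4 changed sign. That choice was uneven: KO 3 was kept, with 567 CPM of hepatocyte markers against 582 in WT 4. WT 3 was kept too, with 335 CPM of skeletal muscle markers against 202 in WT 4. In liver, too, 0 of the 10 were called, where 0.00752% of 13298 genes, a single gene, were called. DESeq2 called 138 liver genes, with 0 of the 10 among them. An unadjusted p under 0.05 was reached in liver by Akt1 (lower in KO) and Sos1 (higher in KO), 2 of the 10, where 13.1% of all genes reached it. In liver 0 of the 10 were without overlap of the groups, where 2.84% of all genes were (1.77% with KO above). The liver log2 differences ran from -0.28 to 0.27, 6 of them positive, where 50% of all genes were, with a median of 0.09 against 0.0001 over all genes. For the difference of the KO effect between the tissues, 0 of the 10 were called, where 0% of 15652 genes were called, and 0 of the 10 had an unadjusted p under 0.05, where 5.36% of all genes did. For that difference DESeq2 called 2 genes and limma-voom 0, none of them among the 10. That difference was positive for 4 of the 10, where it was for 50.9% of all genes.

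**Figure D1:**
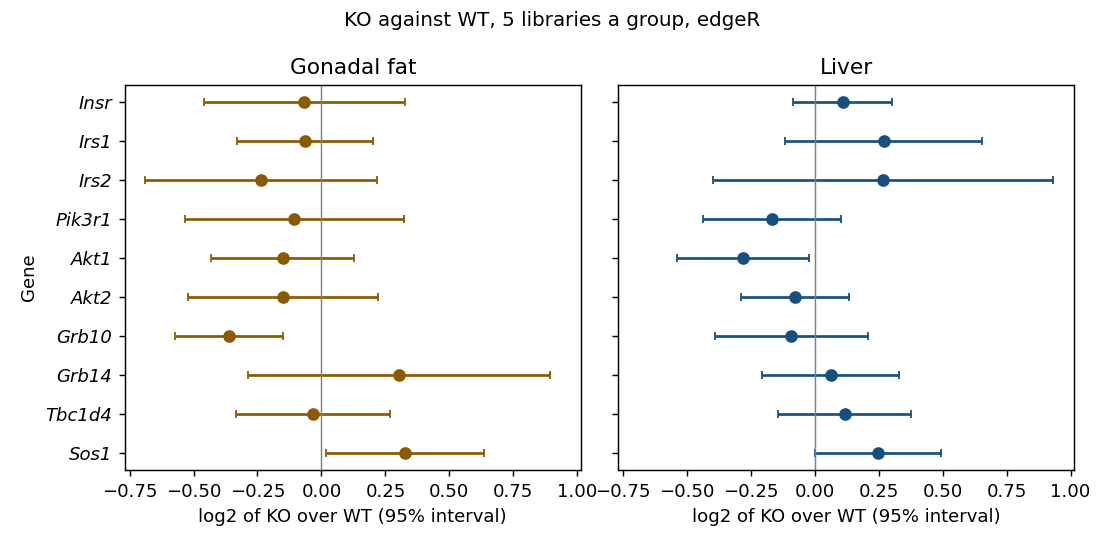
The log2 ratio of KO over WT (horizontal axis) for the 10 genes, in gonadal fat (left) and liver (right), with 95% intervals from edgeR over 5 libraries a group. The values lie between -0.36 and 0.33 in fat and between -0.28 and 0.27 in liver, and the intervals of Grb10 and Sos1 in fat and of Akt1 and Sos1 in liver leave out 0.

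WT fat and WT liver differed for 7 of the 10 genes by edgeR, where 74.3% of 14739 genes were called, a share close to that of the 10. Grb10, Tbc1d4, Akt2 and Irs1 were higher in fat, and Grb14, Sos1 and Insr were higher in liver. Irs2, Pik3r1 and Akt1 were not called. The libraries of the 2 tissues did not overlap for 7 of the 10, where 62.4% of all genes did not (32.1% with fat above and 30.3% with fat below). The log2 difference was positive for 6 of the 10, where it was for 51.6% of all genes. The KO libraries are other libraries under the same contrast, and KO fat against KO liver also called 7 of the 10, where 74.4% of all genes were called, with log2 differences of 3.5 for Grb10, 2.61 for Tbc1d4, 0.93 for Akt2, 0.62 for Irs1, -1.11 for Sos1, -1.28 for Insr and -3.18 for Grb14. The size of a tissue difference depends on the scaling. With plain library totals in place of TMM, the median log2 difference over all genes moved from 0.04 to 0.97. On that scale Insr (-0.2, adjusted p = 0.243 by edgeR) and Sos1 (-0.28, adjusted p = 0.0839) were no longer called, and Akt1 turned to higher in fat (0.85, adjusted p = 0.000385). Grb10, Tbc1d4, Akt2, Irs1 and Grb14 kept their direction and their call with TMM, RLE, upper quartile factors and plain totals.

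**Figure D2:**
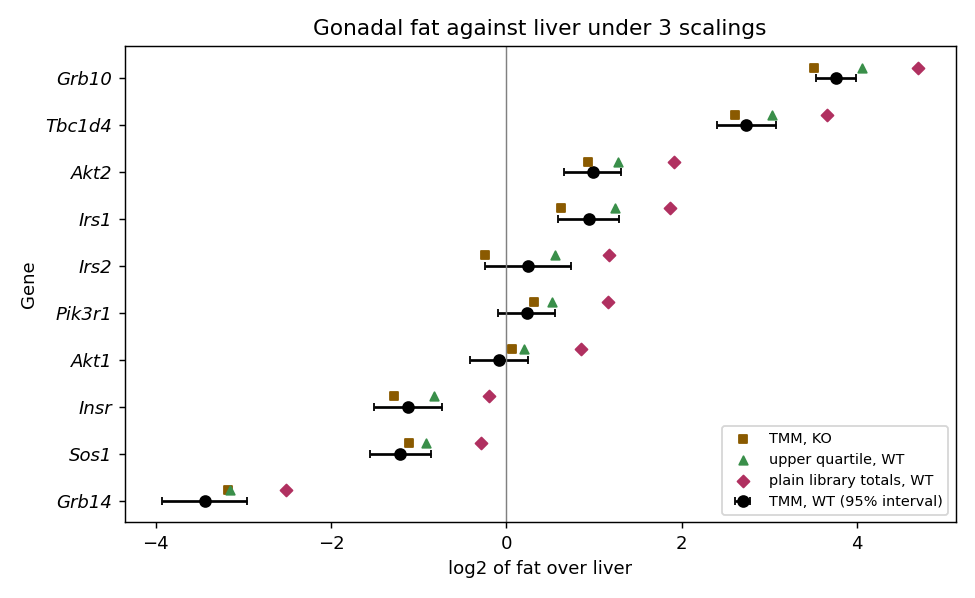
The log2 ratio of gonadal fat over liver (horizontal axis) for the 10 genes. Black points are WT libraries scaled by TMM with their 95% interval, squares are KO libraries, and triangles and diamonds are WT libraries scaled by upper quartile factors or by plain totals. Grb10 lies at 3.76 and Grb14 at -3.44 with TMM, and plain totals move the points to the right.

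Insr (ENSMUSG00000005534, chromosome 8, 3122061 to 3279617, minus strand, GRCm38) encodes the receptor itself. Its levels were 158, 131, 128, 148 and 126 CPM in KO fat and 163, 168, 93.2, 180 and 117 CPM in WT fat. The WT fat libraries spread on both sides of the KO libraries, with a coefficient of variation of 25.9% in WT against 10.1% in KO. The KO to WT ratio in fat was 0.955 (95% interval 0.728 to 1.25). Library WT 3, the lowest for Insr, had the highest sums of macrophage markers (1990 CPM) and erythroid markers (3140 CPM) among the fat libraries and the lowest sum of adipocyte markers among WT fat libraries (23200 CPM); their part in the result was not tested. In bulk tissue, fewer cells of a type and less RNA per cell cannot be told apart. In liver Insr stood at 370, 338, 346, 327 and 337 CPM in KO and at 307, 282, 304, 331 and 358 CPM in WT. The groups overlapped, and the ratio was 1.08 (0.944 to 1.23). Liver held more Insr than fat in each WT library, with a fat to liver ratio of 0.459 (0.351 to 0.601) and an adjusted p of 0.000111 by edgeR, but with plain library totals the difference was not called.

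Irs1 (ENSMUSG00000055980, chromosome 1, 82233101 to 82291416, minus strand) and Irs2 (ENSMUSG00000038894, chromosome 8, 10984681 to 11008458, minus strand) encode the docking proteins that carry most of the receptor's metabolic signal. Irs2 is also known as a gene that FOXO1 switches on in fasted liver and insulin switches off. Their promoters are shown because the pair of short motifs in capitals is shared by both genes. The 250 bases before the RefSeq transcription start of each (GRCm38.p6, minus strand, chr1:82291440-82291689 and chr8:11008930-11009179) are printed 5′ to 3′, with the stretch from the E-box CACGTG to the end of the T-rich element TGTTTTG in capitals. The third line is a 64-base stretch of the promoter of Irs4 (chrX:141725333-141725396, minus strand), a related docking protein.
Irs1: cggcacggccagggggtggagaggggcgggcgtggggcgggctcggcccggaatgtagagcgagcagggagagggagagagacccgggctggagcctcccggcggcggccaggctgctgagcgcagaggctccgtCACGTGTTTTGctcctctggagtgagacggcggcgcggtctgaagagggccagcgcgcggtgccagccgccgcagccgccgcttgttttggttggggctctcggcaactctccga
Irs2: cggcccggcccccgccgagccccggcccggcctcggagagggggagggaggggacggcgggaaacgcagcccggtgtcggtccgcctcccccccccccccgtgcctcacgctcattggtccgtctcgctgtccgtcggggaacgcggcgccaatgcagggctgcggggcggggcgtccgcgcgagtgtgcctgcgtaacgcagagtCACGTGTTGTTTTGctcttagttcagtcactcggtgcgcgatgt
Irs4: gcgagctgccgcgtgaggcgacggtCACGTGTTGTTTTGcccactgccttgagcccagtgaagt

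In Irs1 the E-box started 115 bases before the transcription start and the T-rich element 4 bases further on, so that they share letters, and a further TGTTTTG lay 32 bases before the start. In Irs2 the E-box started 44 bases before the start and the T-rich element 7 bases further on. These distances are counted to the RefSeq start. The GENCODE start of Irs2 (11008458) lies downstream of the near edge of the printed window (11008930), so the motifs are farther from it. Searched on both strands, CACGTG was in 6.02% and TGTTTTG in 5.56% of 32851 RefSeq promoter windows of the same length. The T-rich element began within 10 bases of the E-box's start on the same strand in only 7 windows, or 0.0213%. These belonged to Irs1, Irs2, Irs4, Klf11, Pcbp1, Pyroxd1 and 1700019P21Rik. The letters were chosen after these promoters had been read, and a match is a description of the sequence, not a site shown to be bound. Of the other members, 7 had at least 1 promoter window in the table, and none of those windows held either motif; Insr had no window there. Irs4 itself was at 0 to 3 counts per library and was not tested in any comparison.

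Irs1 levels were 47.6, 32.1, 43.6, 45.2 and 47.3 CPM in KO fat and 39.9, 52.7, 45.4, 46 and 41.5 CPM in WT fat. The groups overlapped, with KO library 2 below all others, and the ratio was 0.956 (0.795 to 1.15). In liver Irs1 stood at 21.6, 32.1, 33.9, 32.9 and 23.3 CPM in KO and at 19.8, 17.1, 24.4, 24 and 33.1 CPM in WT. In liver 3 KO libraries and WT library 5 lay between 32.1 and 33.9 CPM, and the remaining libraries lay at 24.4 CPM or below. The liver ratio was 1.21 (0.924 to 1.57). WT fat held 1.92 times as much Irs1 as WT liver (1.51 to 2.44, adjusted p = 0.000195 by edgeR). The gene Gm9747 lies on the opposite strand wholly within the exons of Irs1, sharing all of its 2822 bases with it, and, although the library kit keeps strand, the sources used here do not say whether the counting did, so the split of reads between them is uncertain. Gm9747 was listed at 25.4 to 42.7 CPM in WT fat and 2.76 to 11.8 CPM in WT liver. Added together, both genes came to 70.8 to 82.6 CPM in WT fat and 21.1 to 39.1 CPM in WT liver, which did not overlap.

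Irs2 levels were 76.3, 50.5, 45.8, 80.9 and 52.8 CPM in KO fat and 66, 78.3, 50.6, 95.4 and 69.6 CPM in WT fat. The ranges overlapped over most of their length, and the ratio was 0.849 (0.621 to 1.16). In liver Irs2 stood at 49.2, 74.3, 84.7, 117 and 45.3 CPM in KO and at 52.4, 51.7, 42.5, 60.8 and 98 CPM in WT. It was the most variable of the 10 genes in liver, with a coefficient of variation of 39.2% in KO and 35.4% in WT, and the ratio was 1.2 (0.758 to 1.91). Fat and liver of WT mice did not differ by the test (ratio 1.19, 0.845 to 1.67, adjusted p = 0.334 by edgeR), although upper quartile factors (adjusted p = 0.0374) and plain totals (adjusted p = 0.00043) called Irs2 higher in fat. Without WT liver library 5, the highest of its group, edgeR called it with TMM as well, at a log2 difference of 0.48.

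Pik3r1 (ENSMUSG00000041417, chromosome 13, 101680563 to 101768217, minus strand) encodes the regulatory subunits that bind Irs proteins. It stood at 253, 232, 158, 169 and 137 CPM in KO fat and at 189, 210, 218, 253 and 150 CPM in WT fat. The 2 groups covered almost the same range, and the ratio was 0.929 (0.691 to 1.25). In liver the levels were 178, 138, 149, 128 and 190 CPM in KO and 146, 199, 167, 201 and 162 CPM in WT, which also overlapped (ratio 0.891, 0.739 to 1.07). Between the tissues the ratio of fat to liver in WT was 1.17 (0.938 to 1.47, adjusted p = 0.176 by edgeR). Upper quartile factors (adjusted p = 0.00637) and plain totals (adjusted p = 1.58e-05) called Pik3r1 higher in fat.

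Akt1 (ENSMUSG00000001729, chromosome 12, 112653821 to 112674884, minus strand) encodes the broadly used Akt kinase, known for its part in growth. In fat it stood at 77.2, 83.3, 97, 87.6 and 83.1 CPM in KO and at 87.5, 76, 126, 87 and 98.5 CPM in WT. The WT library with 126 CPM was WT 3, the one with the least Insr, and the ratio was 0.901 (0.742 to 1.09). In liver Akt1 stood at 76.8, 102, 89.3, 81.3 and 71.6 CPM in KO and at 106, 116, 76.8, 113 and 96.2 CPM in WT. The liver ratio of 0.823 (0.689 to 0.984) had an unadjusted p of 0.0345 and an adjusted p of 0.346 by edgeR, and the groups overlapped: WT libraries 3 and 5 lay below KO library 2. Without the pair of WT liver libraries that held skeletal muscle transcripts (WT 2 and WT 4), 0 of the 10 genes had an unadjusted p under 0.05 in liver, where 7.35% of all genes did. The log2 difference of Akt1 was then -0.16 in place of -0.28, and that of Sos1 0.23 in place of 0.25. With plain library totals the unadjusted p of Akt1 in liver was 0.0721 by edgeR.

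Akt2 (ENSMUSG00000004056, chromosome 7, 27591552 to 27640826, plus strand) encodes the Akt kinase known for glucose uptake and lipid synthesis. It stood at 302, 228, 229, 304 and 257 CPM in KO fat and at 372, 325, 200, 282 and 282 CPM in WT fat, with a ratio of 0.902 (0.697 to 1.17). Both extremes belonged to WT fat, with library WT 1 highest and WT 3 lowest. In liver it stood at 142, 161, 153, 142 and 111 CPM in KO and at 151, 162, 142, 149 and 140 CPM in WT, with a ratio of 0.949 (0.82 to 1.1). Every fat library lay above every liver library, and the WT fat to liver ratio was 1.98 (1.58 to 2.48, adjusted p = 8.05e-05 by edgeR).

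Tbc1d4 (ENSMUSG00000033083, chromosome 14, 101442360 to 101609191, minus strand), the Akt substrate that holds back GLUT4 vesicles, stood at 69.9, 56.4, 55.2, 60.8 and 62.3 CPM in KO fat and at 70, 72.9, 48.4, 69.9 and 49.9 CPM in WT fat. WT libraries 3 and 5 lay below the KO libraries and the other 3 WT libraries at or above the highest of them, and the ratio was 0.977 (0.793 to 1.2). In liver it stood at 9.98, 10.2, 10.4, 9.9 and 10.6 CPM in KO and at 8.9, 10.8, 7.49, 9.52 and 10.2 CPM in WT. The KO liver libraries had the smallest spread of any group for any of the 10 genes, with a coefficient of variation of 3%, and the ratio was 1.08 (0.906 to 1.3). WT fat held 6.66 times as much Tbc1d4 as WT liver (5.29 to 8.4, adjusted p = 1.35e-08 by edgeR).

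**Figure D3:**
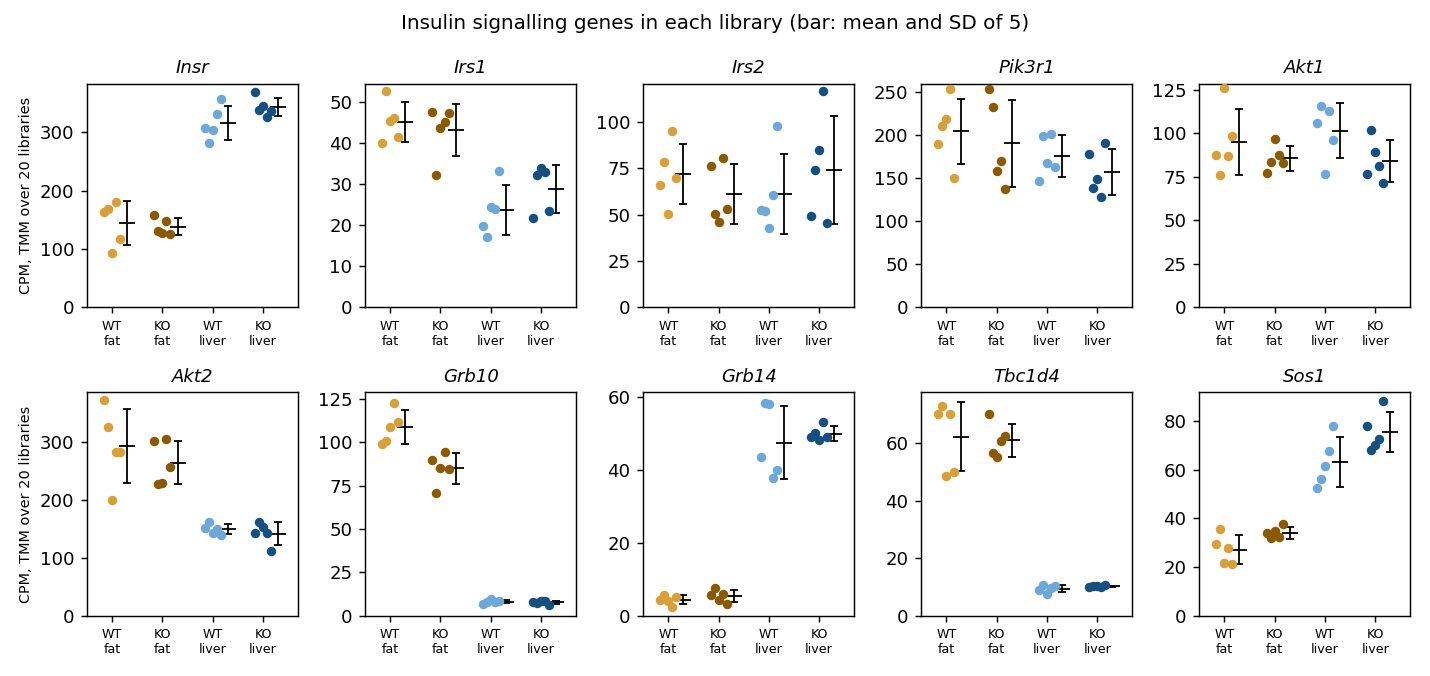
Levels of the 10 genes in CPM (vertical axes from 0, TMM over 20 libraries) in each library of WT fat, KO fat, WT liver and KO liver. Points are libraries and bars give the mean and SD of 5. Grb10 and Tbc1d4 are high in fat, Grb14 in liver, and on this scale only Grb10 in fat separates KO (70.9 to 94.4) from WT (98.9 to 123).

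Among the inhibitory adaptors, Grb10 (ENSMUSG00000020176, chromosome 11, 11930508 to 12038683, minus strand), an imprinted gene, had the smallest p of the 10 for KO against WT. In fat it stood at 89.9, 70.9, 85.1, 94.4 and 84.6 CPM in KO and at 98.9, 101, 109, 123 and 112 CPM in WT. All 5 KO libraries lay below all 5 WT libraries, as they did for 0.639% of all genes, and Grb10 was the only one of the 10 without overlap, where 1.26% of all genes were (0.626% with KO above). On plain library totals the groups overlapped, with KO library 4 at 133 and WT library 1 at 129 CPM. The ratio was 0.779 (0.673 to 0.902), which ranked 41 among 14707 genes by p (unadjusted p = 0.00333), but the adjusted p was 0.687 by edgeR and 0.112 by DESeq2, so Grb10 was not called. Left-out libraries did not turn the direction, with log2 differences from -0.4 to -0.3, and without the 3 fat libraries KO 2, WT 2 and WT 4 the value was -0.26 (adjusted p = 0.488). The adipocyte marker sum lay between 18500 and 26700 CPM in KO fat and between 23200 and 32700 CPM in WT fat, and its part in the Grb10 value was not tested. In liver Grb10 stood at 7.86, 7.19, 8.66, 8.37 and 6.29 CPM in KO and at 6.82, 7.93, 9.46, 8.1 and 8.3 CPM in WT, with a ratio of 0.939 (0.764 to 1.15). The log2 effect in fat minus that in liver was -0.28 (95% interval -0.58 to 0.02, adjusted p = 0.903 by edgeR). The largest tissue difference of the 10 was also that of Grb10, with 13.5 times as much in WT fat as in WT liver (11.5 to 15.9, adjusted p = 1.29e-10 by edgeR).

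Grb14 (ENSMUSG00000026888, chromosome 2, 64912476 to 65024987, minus strand), the related receptor inhibitor, had the opposite distribution. It stood at 5.57, 7.52, 4.46, 6.07 and 3.25 CPM in KO fat and at 4.24, 5.74, 4.06, 2.49 and 5.2 CPM in WT fat. The lowest library was a WT one and the highest a KO one, but the groups overlapped and the ratio of 1.23 had a wide interval (0.82 to 1.86). In liver Grb14 stood at 49, 50.2, 48.3, 53.3 and 49.1 CPM in KO and at 43.5, 58.5, 58.1, 37.7 and 39.9 CPM in WT. The KO liver libraries lay close together in the middle of the WT range, with a coefficient of variation of 3.94% against 21.1%, a difference in spread that was not tested, and the ratio was 1.04 (0.867 to 1.26). WT fat held 0.0923 times as much Grb14 as WT liver (0.066 to 0.129, adjusted p = 4.36e-08 by edgeR).

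Sos1 (ENSMUSG00000024241, chromosome 17, 80393751 to 80480453, minus strand), which starts the Ras arm, was the only one of the 10 with an unadjusted p under 0.05 in both tissues. The share of all genes that reached it in both was not counted, and whether the tissues share mice is not settled. Sos1 stood at 33.8, 32, 34.7, 32.2 and 37.9 CPM in KO fat. In WT fat it stood at 29.5, 35.5, 21.7, 27.7 and 21.3 CPM. The KO libraries lay above 4 of the 5 WT libraries, and WT library 2 lay among them. The fat ratio was 1.25 (1.01 to 1.55), with an unadjusted p of 0.0399 and an adjusted p of 0.687 by edgeR. Without the fat libraries KO 2, WT 2 and WT 4 the log2 difference of Sos1 was 0.53 in place of 0.33. In liver it stood at 78.1, 68.1, 70.2, 72.6 and 88.4 CPM in KO and at 52.4, 56.1, 61.6, 67.7 and 78.1 CPM in WT. Here too 4 of the 5 WT libraries lay below the KO libraries, and the ratio was 1.19 (1 to 1.41), with an unadjusted p of 0.0485 and an adjusted p of 0.376. The unadjusted p in liver crossed the threshold under other settings: it was 0.0513 with upper quartile factors, 0.0531 with DESeq2 and 0.0608 with all 20 libraries in 1 edgeR fit. Liver held more Sos1 than fat (WT fat to liver ratio 0.433, 0.341 to 0.549, adjusted p = 2.17e-05 by edgeR), and with plain totals the direction held but the call was lost.

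Ratios of 2 transcripts within a library do not depend on how libraries are scaled, and were taken per length of the union of exons. The ratio of Grb14 to Grb10 was 0.0256 to 0.0716 in WT fat and 0.0486 to 0.134 in KO fat, but 5.88 to 9.33 in WT liver and 7.06 to 9.87 in KO liver. Each liver library therefore had more Grb14 than Grb10 per length, and each fat library more Grb10. The ratio of Akt2 to Akt1 was above 1 in 9 of the 10 fat libraries. The exception was WT fat 3, at 0.909, while the other WT fat libraries reached up to 2.46 and the KO fat libraries ran from 1.36 to 2.25. In liver Akt2 and Akt1 were close to equal, with ratios of 0.76 to 1.06 in WT and 0.894 to 1.07 in KO. With the Irs1 counts as listed, Irs2 exceeded Irs1 per length in all 20 libraries. The mean ratios were 2.31 ± 0.503 in WT fat and 2.07 ± 0.47 in KO fat (SD, n = 5 each). They were 3.73 ± 0.744 in WT liver and 3.64 ± 0.882 in KO liver. The ratio of Irs1 to Insr was 0.368 to 0.731 in WT fat and 0.368 to 0.566 in KO fat. In liver it was 0.0913 to 0.139 in WT and 0.0877 to 0.151 in KO. Ratios with Irs1 leave out Gm9747, whose split of reads with Irs1 is uncertain. Gm9747 was listed at 25.4 to 42.7 CPM in WT fat and 18.8 to 35.4 CPM in KO fat. Were its reads those of Irs1, Irs2 to Irs1 would be lower and Irs1 to Insr higher. The ratios were not recomputed with them.

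**Figure D4:**
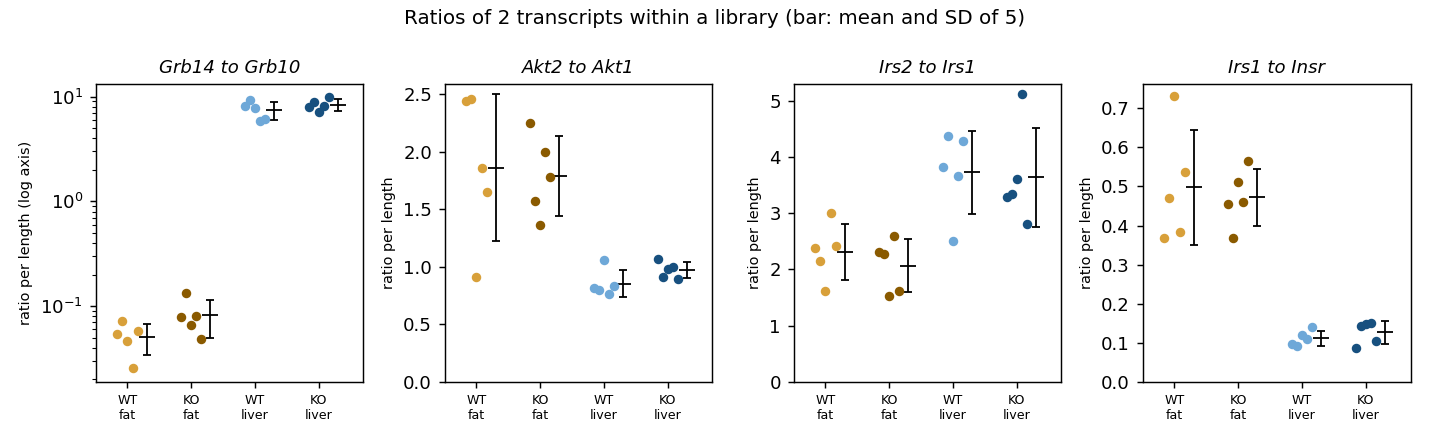
Ratios of 2 transcripts per length within each library (vertical axes; the first is a log axis) in WT fat, KO fat, WT liver and KO liver. Points are libraries and bars give the mean and SD of 5. Grb14 to Grb10 is at most 0.134 in all fat libraries and above 5.88 in all but 1 liver library, which is at 5.88.

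Per kb of exon, Akt2 ranked first in WT fat, at 41 ± 8.91 CPM per kb, followed by Akt1 (23.2 ± 4.69), Pik3r1 (20.2 ± 3.79), Grb10 (12 ± 1.06), Irs2 (11.4 ± 2.61), Insr (10.5 ± 2.72), Tbc1d4 (8.1 ± 1.57), Irs1 (4.93 ± 0.54), Sos1 (2.56 ± 0.556) and Grb14 (0.605 ± 0.173) (SD, n = 5 each). Neighbours in that order had overlapping library ranges down to Tbc1d4, except Pik3r1 and Grb10, and from Tbc1d4 on each gene lay above the next without overlap. In WT liver the order was Akt1 (24.8 ± 3.87), Insr (23 ± 2.11), Akt2 (20.9 ± 1.23), Pik3r1 (17.4 ± 2.39), Irs2 (9.66 ± 3.42), Grb14 (6.62 ± 1.4), Sos1 (5.96 ± 0.957), Irs1 (2.59 ± 0.664), Tbc1d4 (1.22 ± 0.165) and Grb10 (0.893 ± 0.104). There the ranges of Sos1 and Irs1, and of Irs1 and Tbc1d4, did not overlap, and all other neighbours did. The order rests on the exon length used: with the longest transcript as the length, Grb14 in WT liver was at 17 ± 3.59 CPM per kb, above Irs2. With that length Pik3r1 (21 to 35.6) and Grb10 (19.5 to 24.3) overlapped in WT fat. The place of Irs1 leaves out Gm9747, whose split of reads with Irs1 is uncertain. Both together came to 70.8 to 82.6 CPM in WT fat, against 39.9 to 52.7 CPM for Irs1 alone. The gap between Tbc1d4 and Irs1 was not recomputed with that sum.

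Within a tissue, some of the genes varied together from library to library. Each library's log2 CPM was taken as its deviation from the mean of its genotype group, and the 45 pairs of members were described by Pearson's r over 10 libraries. Both genes of a pair are read in the same libraries, whose scaling and cell composition varied. The part of these in the r values was not tested. In fat the highest r was that of Insr and Tbc1d4, at 0.92 (Spearman's rho 0.84), and it was 0.92 without the 2 libraries farthest from the median of Insr. Insr also varied with Akt2 (r = 0.79, rho 0.67) and against Akt1 (r = -0.86, rho -0.83; r = -0.74 without 2 libraries). Tbc1d4 and Akt1 had the lowest r in fat, at -0.87 (rho -0.96). In liver the highest r was that of Irs1 and Irs2, at 0.79 (rho 0.82, and r = 0.815 without 2 libraries). The lowest in liver was that of Insr and Grb14, at -0.76 (rho -0.78, and r = -0.56 without 2 libraries). These are descriptions of 10 libraries, with no test.

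**Figure D5:**
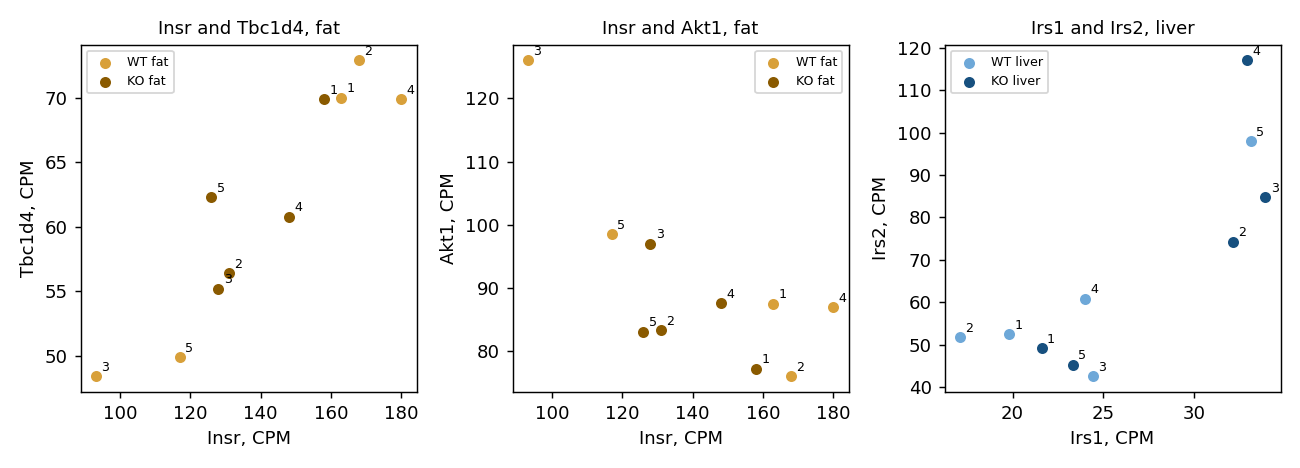
Levels in CPM of Insr (horizontal) with Tbc1d4 and with Akt1 (vertical) in fat, and of Irs1 (horizontal) with Irs2 (vertical) in liver. Each point is a library with its replicate number. WT fat 3 has the least Insr (93.2) and the most Akt1 (126), and the 4 liver libraries with the most Irs1 (32.1 to 33.9) also have the most Irs2 (74.3 to 117).

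Among all other tested genes, those whose deviations were most like Insr in fat were Dgat1 (r = 0.99, rho 0.96), the enzyme of the last step of triglyceride synthesis, Pde3b (r = 0.99, rho 0.98), the phosphodiesterase through which insulin restrains lipolysis, and Mosmo (r = 0.98, rho 0.98). The nearest to Irs1 in fat were Gm37274 (r = 0.98, at 4 to 21 counts per fat library), Slc15a2 (r = 0.93) and Stag3 (r = 0.92). The nearest to Irs2 in fat were Kansl3 (r = 0.97), Lrp3 (r = 0.94) and Ubn1 (r = 0.93). In liver the nearest to Insr were Med1 (r = 0.97), Sbno1 (r = 0.955) and Nek9 (r = 0.945), those to Irs1 were Arel1, Tent4a and Hnrnpa0 (r = 0.94, 0.94 and 0.93), and those to Irs2 were Smad6 (r = 0.96), Pcbp4 (r = 0.92) and Abcc3 (r = 0.91). For each of Insr, Irs1 and Irs2 these are the 3 highest values among 14706 genes in fat and 13297 in liver, over 10 libraries.

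The wider pathway was read from 6 lists. In the comparisons of KO with WT, 0 genes of any list were called in either tissue. In fat an unadjusted p under 0.05 was reached by 2 of 11 tested receptors and substrates, 0 of 12 genes of PI3K and mTORC2, 0 of 19 Akt targets, 2 of 16 genes of the Ras and MAP kinase arm, 2 of 27 brakes and 2 of 11 transcripts set by insulin or FOXO1, where 7.13% of all genes reached it. Medians of the 6 lists in fat ran from -0.02 to 0.14 on the log2 scale. In fat the Ras GTPase activating protein Rasa1 averaged 44.6 ± 5.22 CPM over KO libraries against 36.5 ± 4.22 over WT libraries (SD, n = 5 each; ratio 1.22, 1.04 to 1.43). Pck1, which helps supply the glycerol part of triglycerides in fat, had a ratio of 0.724 (0.539 to 0.973). The stress protein gene Sesn3, a FOXO target, had 1.24 (1.05 to 1.46). Socs3, a feedback inhibitor of cytokine and insulin receptors, averaged 6.1 ± 2.39 CPM over KO libraries against 12.7 ± 9.82 over WT libraries (ratio 0.48, 0.219 to 1.05).

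In liver, the brakes on insulin signalling had 6 of 26 tested genes with an unadjusted p under 0.05, the Ras and MAP kinase arm 4 of 16, PI3K and mTORC2 3 of 12, Akt targets 1 of 19, FOXO1 and insulin transcripts 1 of 14 and receptors and substrates 0 of 10, where 13.1% of all genes reached it. The medians ran from -0.05 to 0.06. Ptpn1, the tyrosine phosphatase that switches off the receptor, had a ratio of 0.819 (0.716 to 0.937, adjusted p = 0.24 by edgeR), Socs3 0.65 (0.473 to 0.892) and the Akt phosphatase Phlpp2 0.751 (0.606 to 0.931). Ahsg, a secreted liver protein described as an inhibitor of the receptor, had 0.746 (0.623 to 0.892, adjusted p = 0.231) and no overlap, KO below WT. All 7 hepatocyte markers were lower in KO liver as well (median log2 difference -0.244, with 0 called). Their part in the Ahsg value was not tested. In the Ras arm Sos2, the close relative of Sos1, had a ratio of 1.16 (1.02 to 1.32), Rasa1 1.21 (1.04 to 1.4, with all KO libraries above all WT libraries) and Hras 0.808 (0.691 to 0.946). The groups did not overlap for 1 of 26 brakes, 1 of 16 genes of the Ras arm and 0 of the other lists. Over all genes the share was 2.84% (1.77% with KO above and 1.07% with KO below). Among FOXO1 targets, Sesn3 was at 1.33 (1.11 to 1.61, adjusted p = 0.235) and Igfbp1 at 0.652 (0.408 to 1.04). All 8 macrophage markers were lower in KO liver, 7 of them with an unadjusted p under 0.05, and their sum ran from 373 to 451 CPM in KO and from 401 to 720 CPM in WT. The part of macrophage transcripts in the values of Socs3 and Pik3cd (ratios 0.65 and 0.702), which immune cells also express, was not tested. For the difference of the KO effect between the tissues, 0 genes of the 6 lists were called.

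Between the WT tissues, the lists held further pairs of related genes with opposite distributions. Grb7, the remaining member of the Grb7, Grb10 and Grb14 adaptor family, stood at 1.58 ± 1.26 CPM in fat and 120.5 ± 9.11 CPM in liver (ratio 0.0133, 0.00762 to 0.0233), on the side of Grb14. Irs3, a docking protein that rodents express in fat, stood at 39.4 ± 6.27 CPM in fat and 0.289 ± 0.236 CPM in liver, where libraries held 1 to 8 counts (ratio 133, 85.7 to 205). The translation repressors Eif4ebp1 and Eif4ebp2 had ratios of 4.24 (3.59 to 5.01) and 0.272 (0.228 to 0.325). Slc2a4, which encodes GLUT4, had a ratio of 62.5 (37.3 to 105), Igf1r 3.64 (3.15 to 4.2) and the regulatory subunit Pik3r3 6.64 (5.2 to 8.47). Higher in liver were Ceacam1 (0.0844, 0.0697 to 0.102), which promotes insulin clearance, the receptor phosphatase Ptprf (0.122, 0.0959 to 0.155) and the MAP kinase phosphatase Dusp6 (0.147, 0.111 to 0.195). Each of these genes passed the edgeR test, with adjusted p from 4.98e-10 for Ceacam1 to 7.02e-08 for Dusp6. Of the lists, receptors and substrates had 6 called higher and 3 lower in fat of 11 tested (median 0.97), and PI3K and mTORC2 6 and 3 of 12 (0.43). Akt targets had 8 and 7 of 19 (0.06), the Ras and MAP kinase arm 4 and 9 of 16 (-0.35), brakes 11 and 11 of 26 (-0.25) and transcripts set by insulin or FOXO1 5 and 7 of 14 (-0.44), against a median of 0.04 over all genes and 38.4% of genes called higher and 35.9% lower. That balance rests on the scaling: upper quartile factors called 48.6% of all genes higher in fat and 26.1% lower, and plain totals 71.9% and 15.2%. Of the 10 members, upper quartile factors called 6 higher and 3 lower, and plain totals 7 and 1.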

How the data were processed

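RNA was purified with a Qiagen RNeasy kit and libraries made with an Illumina TruSeq Stranded mRNA kit, per the labels' protocols. The authors deposited expected counts, which need not be whole, for 48440 Ensembl genes in 20 libraries. The tools listed in the submitters' processing notes are RSEM 1.2.12, STAR 2.4.0d, DESeq2 and Trim Galore 0.2.8. The sources used here do not give their order and settings, the annotation release or the strand setting.

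The expected counts were rounded and tested with edgeR 4.0.16 in R 4.3.3 (quasi-likelihood, robust, TMM, filterByExpr with at least 10 counts and 15 in total), with Benjamini-Hochberg adjustment over all genes. Each tissue was fitted alone, and the difference of the KO effects over 20 libraries. A gene was called at an adjusted p under 0.05. DESeq2 1.42.0, limma 3.58.1 (voom), other scalings, filters, a replicate block and left-out libraries were alternatives. Plain totals, and leaving out WT liver 2 and WT liver 4, were chosen after seeing the data. Gene positions and exon lengths came from GENCODE vM21, and promoters from RefSeq. The scripts were tested on simulated data.

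The members and lists were chosen with earlier results of these data known. Named are all members, Prkce, up to 4 genes of each list with the smallest p in a comparison, and the 3 genes most correlated with Insr, Irs1 and Irs2. A gene that this rule would name is not reported here.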

Additional observations from a re-analysis of the deposited data

Results flagged for a closer look

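Irs1 in KO fat replicate 2 stood at 32.1 CPM, while the other 4 KO fat libraries stood at 43.6 to 47.6 CPM. On the log2 scale the gap of this library to the nearest was 0.774 of the group's range, above the 95% critical value of 0.71 for 5 samples. Of 40 groups of 5 libraries examined (10 genes in 4 groups), this 1 was singled out, and chance singles out about 1 in 20. The same library had the lowest adipocyte marker sum (18500 CPM) and the highest urothelial marker sum (1890 CPM) of the fat libraries, and their part in its Irs1 level was not tested.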

How the results depend on the processing

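With KO against WT, 0 of the 10 genes were called in fat, in liver or for the difference between them under every alternative run, and 7 to 9 were called between the WT tissues. Where edgeR called 0 fat genes, 1 liver gene and 0 for the difference, DESeq2 called 16, 138 and 2. In liver edgeR called 15 genes with no filter on low counts, 3 without the 2 liver libraries with muscle transcripts, 2 with all 20 libraries in 1 fit, and 0 to 3 with 1 library left out. The r of same-numbered libraries was -0.233 to 0.342 in KO and WT fat (over 0.1 in 3 of 5 pairs) and -0.164 to 0.189 in liver (1 of 5). Between fat and liver it was 0.003 to 0.158 in WT (2 of 5) and -0.018 to 0.047 in KO (0 of 5). Not every pair was over 0.1, and the numbers were not taken as pairs. The r cannot settle whether same-numbered fat and liver libraries share a mouse, as KO and WT fat, from different mice, reached 0.342. The main fits between tissues took the libraries as independent. With a replicate block edgeR called 0 genes in fat, 3 in liver, 0 for the difference and 10537 between WT tissues, where 10947 were called without it.

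Without the fat libraries KO 2, WT 2 and WT 4, the log2 difference in fat turned positive for Insr (0.18), Irs1 (0.13), Irs2 (0.049) and Tbc1d4 (0.15). With 1 library left out, values crossed 0 in fat for Insr (-0.192 to 0.028), Irs1 (-0.106 to 0.026) and Tbc1d4 (-0.115 to 0.034), and in liver for Grb14 (-0.011 to 0.151). For the difference of effects they crossed 0 for Pik3r1 (-0.07 to 0.15), Akt2 (-0.201 to 0.012) and Sos1 (-0.014 to 0.189). None of these values had been called. Between WT tissues Akt1 turned higher in fat with upper quartile factors (0.21), plain totals (0.85) and in KO libraries (0.061), and Irs2 turned lower in KO libraries (-0.24). With upper quartile factors and plain totals only the scaling was changed. The cause of the turns in KO libraries was not tested. Depth limits most Grb14 in fat, at 54 to 152 counts per library, and Grb10 and Tbc1d4 in liver, at 85 to 131 and 76 to 158.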
